A study of Rattus norvegicus with 9 samples.

Results

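Haemoglobin and haem synthesis were followed through 8 genes of the rat, chosen by symbol out of the 41801 genes counted: the α-globin genes Hba-a1 and Hba-a2, the β-globin genes Hbb, Hbb-b1 and Hbb-bs, and Alas2, Ahsp and Slc4a1. Cells came from the site of a 3 mm circular osteotomy in the proximal tibia of male Sprague-Dawley rats aged 6 to 8 weeks, each with a 4 mm full-thickness wound on the dorsal foot of the same side. In the TO group the bone was left without shock waves, and in the TOE group the site received radial extracorporeal shock waves (rESWT) on days 2 and 4. A condition is named by the day after surgery and the hours after the session. TO was sampled before any session (2d 0h), then at 2d 4h, on day 4 at 4d 4h, and lastly at 4d 24h. TOE had the same points without the baseline and with 2d 24h, a point whose TO library is not analysed here. Each condition had 1 library. The series describes 9 rats for 9 conditions and does not tie an animal to a library, so that animal, library and condition cannot be told apart, and intervals below cover counting error only.

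Haemoglobin is a tetramer of α- and β-globin chains, each of which carries haem, the iron porphyrin that binds oxygen. Red cell precursors in the marrow make it while they stop dividing, shrink and lose the nucleus, and its transcripts come to make up most of the messenger RNA of the cell. Alas2 encodes the erythroid form of 5-aminolevulinate synthase, which starts haem synthesis. Ahsp is the chaperone that holds free α-globin until β-globin is at hand, and Slc4a1 is band 3, the anion exchanger of the red cell membrane. Because these transcripts are so abundant, RNA from broken red cells is also captured in droplets that hold cells of other kinds.

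The 5 globin genes form 2 families of near copies, and the 120 bases before the annotated start of each gene are shown. The β-globin copies behaved differently between libraries (below), and a reference sequence holds no difference between libraries. Sequences are from RefSeq on build GRCr8, whose promoter table held 6 of the 8 genes and not Ahsp and Slc4a1, and each is written 5′ to 3′ on the minus strand, the strand of all 5 genes. Capitals mark the motif CACCC, the motif CCAAT and the motif TATAA with their reverse complements. The windows are chr10:15842581-15842700 for Hba-a1, chr10:15829139-15829258 for Hba-a2, chr1:167663722-167663841 for Hbb, chr1:167643521-167643640 for Hbb-b1 and chr1:167631631-167631750 for Hbb-bs.
Hba-a1: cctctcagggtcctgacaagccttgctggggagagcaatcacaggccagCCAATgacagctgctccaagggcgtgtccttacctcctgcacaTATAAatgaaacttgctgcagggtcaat
Hba-a2: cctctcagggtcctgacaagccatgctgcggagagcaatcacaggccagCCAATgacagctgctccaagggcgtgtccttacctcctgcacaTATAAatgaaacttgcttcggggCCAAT
Hbb: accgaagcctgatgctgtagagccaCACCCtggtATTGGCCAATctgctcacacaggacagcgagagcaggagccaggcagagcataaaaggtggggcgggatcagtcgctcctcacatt
Hbb-b1: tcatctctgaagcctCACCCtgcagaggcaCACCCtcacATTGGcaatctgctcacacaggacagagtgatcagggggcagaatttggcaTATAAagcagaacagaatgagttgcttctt
Hbb-bs: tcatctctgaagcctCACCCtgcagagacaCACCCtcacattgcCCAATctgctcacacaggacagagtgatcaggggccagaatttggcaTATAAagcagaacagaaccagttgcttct

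The α-globin windows were 95.8% identical, and those of Hbb-b1 and Hbb-bs 94.2%. Hbb shared 67.7% of aligned positions with Hbb-b1 and 68.0% with Hbb-bs, less than Hbb-b1 and Hbb-bs shared with each other. Whether this bears on the counts below was not tested. Hbb held CACCC at 1 place where Hbb-b1 and Hbb-bs held it at 2, and it had no TATAA. In Hbb, ATTGG and CCAAT lie next to each other, as 1 match on each strand. TATAA began 28 bases before the start in both α-globin genes, 30 bases before it in Hbb-b1 and 29 in Hbb-bs. Among all 33469 promoters of the table, with 250 bases searched on both strands, 24.0% held TATAA, 34.0% CCAAT and 49.2% held CACCC. The letters of a GATA site, AGATAA, were in none of the 5 genes over 250 bases and in 10.3% of all promoters. These are matches of letters only.

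The 8 libraries held 116711 barcodes with 95954800 to 144146202 UMIs (unique molecular identifiers, 1 for each captured transcript) a library, and 111646 barcodes passed the filters and were not called doublets. Pairs of libraries shared 40 to 110 barcodes. Clustering, run without any globin gene or member, gave 33 clusters, of which 3 took the erythroid-like name from markers such as Klf1 and Ank1. In them 15, 14 and 10 of the 15 erythroid markers were raised. The third, of 2064 cells, belonged to TO 2d 4h for 1986 of its cells. Its median was 1868 UMIs a cell, and when the class was divided further, a group of 2011 cells, 1933 of them from this library, was led by Col1a2, Col1a1, Sparc and Prtn3, which are genes of bone-forming and myeloid cells. It made up 13.3% of the cells of that library, so each result that rests on the erythroid-like class is also given without this cluster. The name was given to 6314 cells with it. Reads that fit more than 1 gene copy are not counted by Cell Ranger, so how counts are split between near copies is uncertain, and sums over the copies stand beside them. The uncounted reads are missing from these sums as well.

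Hba-a1 was the most abundant member in 7 of the 8 libraries. Its level over all cells, as UMIs per 1000000 UMIs (CPM), was 4552 in TO 2d 0h, 9850 in TO 2d 4h, 7855 in TO 4d 4h, 5306 in TO 4d 24h, 3902 in TOE 2d 4h, 3062 in TOE 2d 24h, 7885 in TOE 4d 4h and 42.8 in TOE 4d 24h. The last library stood far below all others. Hba-a2 followed Hba-a1 at 1566 to 4746 CPM in the 7 libraries and 38.3 CPM in TOE 4d 24h. Among the β-globin genes, Hbb-bs stood at 499 to 2270 CPM and Hbb-b1 at 213 to 896 CPM in the 7 libraries, against 71.7 and 4.89 CPM in TOE 4d 24h.

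Hbb had a pattern of its own. Its CPM over all cells was high in TO 2d 0h, with 2858, and TOE 2d 24h, with 1976, but was 326 in TO 2d 4h, 187 in TO 4d 4h, 272 in TO 4d 24h, 100.5 in TOE 2d 4h, 179 in TOE 4d 4h and 1.56 in TOE 4d 24h. The baseline library of TO and the 24 h library of TOE on day 2 were thus high, and no other library came near them.

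Alas2, the first enzyme of the pathway, was at 37.2 CPM in TO 2d 0h, 93.0 in TO 2d 4h, 67.8 in TO 4d 4h, 41.5 in TO 4d 24h, 36.3 in TOE 2d 4h, 27.1 in TOE 2d 24h, 76.8 in TOE 4d 4h and 1.11 in TOE 4d 24h. Slc4a1 followed it at 42.5 to 130 CPM in the 7 libraries and 2.59 CPM in TOE 4d 24h. The chaperone Ahsp was at 119 to 373 CPM in the 7 libraries and at 58.8 CPM in TOE 4d 24h, the smallest gap of any member between that library and the rest. In that library alone Hbb-bs and Ahsp were above Hba-a1.

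**Figure D1:**
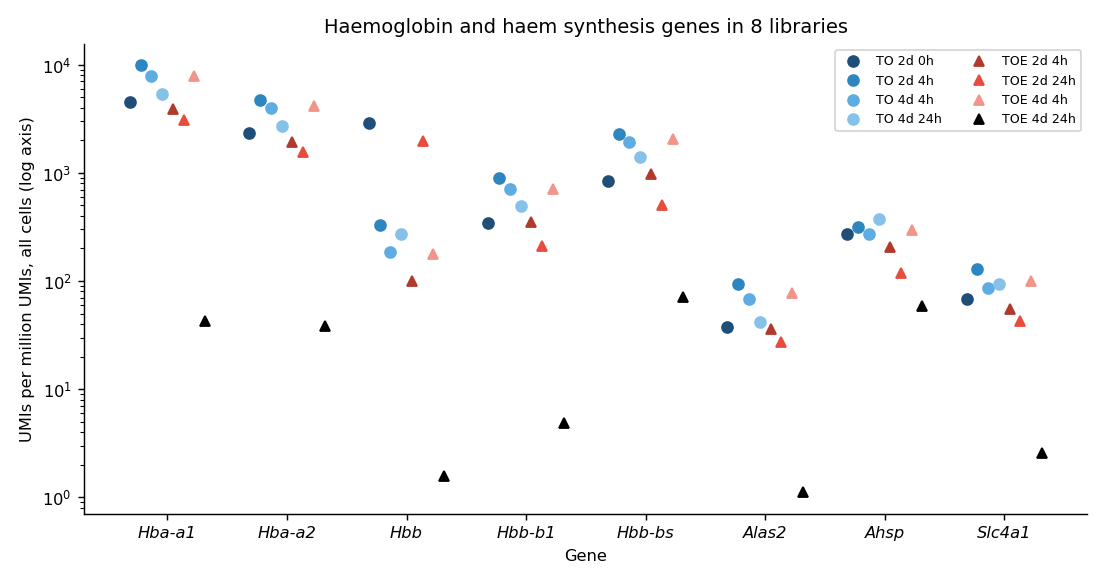
Level of each of the 8 genes over all cells of a library, in CPM on a log axis, with 1 point a library (circles TO, triangles TOE). TOE 4d 24h (black) lies lowest for every gene, and Hbb is high in TO 2d 0h and TOE 2d 24h only.

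Barcodes rich in these transcripts were present in every library but TOE 4d 24h. Barcodes in which the 8 genes made up at least 25% of the UMIs numbered 374 in TO 2d 0h, 495 in TO 2d 4h, 349 in TO 4d 4h, 454 in TO 4d 24h, 291 in TOE 2d 4h, 351 in TOE 2d 24h, 424 in TOE 4d 4h and 0 in TOE 4d 24h. At 50% or more there were 134 to 262 in the 7 libraries. The highest share of any barcode in TOE 4d 24h was 4.23%, against 75.6 to 88.8% in the others. All these barcodes were counted before any filter, so that none of the 12007 cells kept in TOE 4d 24h reached 25% either, and at a limit of 3 counts this allows a share of up to 0.0250% of them.

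**Figure D2:**
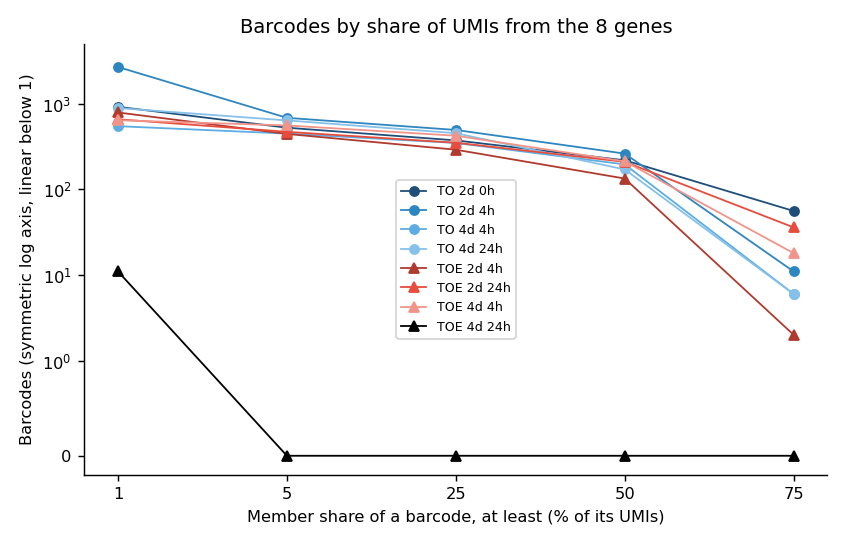
Number of barcodes, before any filter, whose share of UMIs from the 8 genes reached 1, 5, 25, 50 or 75%, on a symmetric log axis with 1 line a library. The 7 upper lines lie between 134 and 262 barcodes at 50%, while TOE 4d 24h has 11 barcodes at 1% or more and 0 from 5% on.

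The effect of rESWT was addressed by the 3 pairs with the same day and hour. At 2d 4h the 8 genes together stood at 18627 CPM in TO and 7563 CPM in TOE, a ratio of TOE to TO of 0.406 (95% interval 0.405 to 0.407). At 4d 4h they stood at 15077 and 15445 CPM, a ratio of 1.02 (1.02 to 1.03), which turned to 0.983 with doublets kept. At 4d 24h they stood at 10688 and 222 CPM, a ratio of 0.0208 (0.0205 to 0.0210). TOE was thus lower in 2 of the 3 pairs, in this count without doublets, and over the 3 log2 ratios an exact two-sided sign-flip test gave p = 0.5, where 0.25 is the lowest that 3 pairs allow.

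At 2d 4h the globin genes, Alas2 and Slc4a1 were 2.31 to 3.24 times higher in TO, with Hbb-bs lowest and Hbb highest in that range. Ahsp was 1.53 times higher in TO. At an absolute log2 ratio of at least 1, 7 of the 8 members were lower in TOE and 0 were higher, with Ahsp inside the threshold. Of 18368 genes with at least 50 UMIs over the pair, 5.01% were lower in TOE by this measure and 4.67% higher. The median log2 ratio was -1.32 over the members and 0.09 over all genes. Of the 8 haem synthesis enzymes from Alas1 to Fech, 0 passed the threshold, and of 15 genes of the red cell membrane and skeleton 4 were lower and 0 higher.

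At 4d 4h, 0 of the 8 members passed the threshold, against 2.92% of 18748 genes lower in TOE and 1.72% higher. The ratios of TOE to TO ran from 0.956 for Hbb (0.938 to 0.974) to 1.17 for Slc4a1 (1.14 to 1.20). Hba-a1 was at 1.00 (1.00 to 1.01). None of the haem synthesis enzymes, transporters, membrane genes or erythroid factors passed it either. Of 4 haem breakdown genes 1 was higher in TOE, Hmox1, haem oxygenase 1, at 93.9 CPM in TO and 197 CPM in TOE, a log2 ratio of 1.07. Of 5 measured clearance genes 1 was higher, Hp, haptoglobin, which binds free haemoglobin, with a log2 ratio of 1.72. Hp was higher in TOE in the other pairs as well, by a log2 ratio of 1.41 at 2d 4h and 1.49 at 4d 24h, while Hmox1 was within the threshold in both, at 0.33 and -0.99. Of the 5 clearance genes, 1 was higher at 2d 4h, and 2 were higher and 1 lower at 4d 24h. Of all genes 4.67% and 15.8% were higher in these pairs. In CPM of genes other than globins and members, Hp was at 226 outside the erythroid-like class and 15.4 in early erythroid cells. The part of the cell mix in its ratios was not tested.

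At 4d 24h all 8 members were lower in TOE by the threshold, against 6.84% of 18232 genes lower and 15.8% higher, and their median log2 ratio was -5.68 against 0.12 over all genes. The size differed widely between members. TO was higher by 174 times for Hbb, 124 times for Hba-a1, 99.97 times for Hbb-b1, 70.9 times for Hba-a2, 37.3 times for Alas2, 35.9 times for Slc4a1, 19.5 times for Hbb-bs and 6.34 times for Ahsp. Ahsp and Hbb-bs differed least, and the counting intervals of Alas2 and Slc4a1 overlap. Of the haem synthesis enzymes 4 of 8 were lower in TOE by the threshold, of the membrane and skeleton genes 12 of 15, and of the erythroid transcription factors with Epor 5 of 9, with 1 higher.

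In the erythroid-like class as a whole the summed members were lower in TOE at 2d 4h and 4d 24h and close to TO at 4d 4h. At 2d 4h the summed ratio of TOE to TO was 0.692 (0.690 to 0.694), and 0.483 (0.482 to 0.484) without the TO 2d 4h cluster. At 4d 4h it was 1.02 (1.02 to 1.03) and at 4d 24h 0.0619 (0.0610 to 0.0628). The classes of the last pair differed in make-up by the ranges set out below. TOE held 75 early, 0 middle and 0 late cells, and TO held 274, 330 and 189. In large early cells alone the ratio of this pair was 0.560 (0.551 to 0.569). By the threshold, 0 of 8 members were lower at 2d 4h (13.6% of all genes lower, 5.47% higher), or 5 of 8 without that cluster (1.83% lower, 8.72% higher). At 4d 4h the count was 0 of 8 (1.33% lower, 1.65% higher), and at 4d 24h 8 of 8 were lower (4.60% lower, 13% higher). The sign-flip test over the 3 pairs gave p = 0.5 with the cluster and without it (exact, lowest possible 0.25).

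The share of erythroid-like cells was lower in TOE at 2d 4h and 4d 24h and higher at 4d 4h, like the level over all cells. At 2d 4h the class made up 18.0% of the TO cells and 3.93% of the TOE cells, a ratio of 0.218 (0.200 to 0.238), which became 0.755 (0.675 to 0.844) without the TO 2d 4h cluster. At 4d 4h the shares were 3.85% and 4.40%, a ratio of 1.14 (1.01 to 1.29), or 1.00 with doublets kept. At 4d 24h they were 5.90% and 0.641%, a ratio of 0.109 (0.0849 to 0.137). The exact sign-flip p was 0.5.

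To place the members along red cell formation, the class was divided into 10 groups, again without the members, and ordered by a late list (Bpgm, Xpo7, Trim58 and others) over the sum of an early and the late list. The late share was 10.9 and 11.7% in the groups called early here, 82.2 and 84.4% in the middle ones and 95.3, 97.4 and 98.4% in the late ones. The other 3 groups, at 24.9, 68.1 and 72.0%, were led by genes of stromal and myeloid cells, neutrophil granules or B cells and were left out. Of the middle groups, that of 749 cells was led by Igha and Jchain, genes of plasma cells, beside histone genes, and the part of such RNA in its values was not tested. Only 103 of its cells were from libraries taken at 4 h, against 681 of the 689 cells in the other middle group. Middle cells of the 4 h libraries and of the others thus came mostly from different groups. These ranges are not cell types and were set after the groups were seen. Early held 1081 cells, middle 1438 and late 1516. The main early group had large cells, with a median of 44771 UMIs, against 3673 to 7022 UMIs in the late ones. The other early group, of 304 cells, was shallow, with a median of 1158 UMIs, and 130 of its cells were from TO 4d 24h. Members made up 3.99% of its UMIs, against 1.19% in the main early group. Early values include both groups unless large early cells are named.

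The members made up 1.26% of UMIs in early, 30.7% in middle and 59.6% in late cells, against 0.100% in cells outside the class. Taken in CPM of genes other than globins and members, Hbb was 264 times higher in late than in early cells, Hbb-b1 228 times, Hba-a2 198 times, Alas2 194 times and Hba-a1 158 times. Lower were Hbb-bs, 62.3 times, Slc4a1, 38.8 times, and Ahsp, 6.80 times. These values pool the libraries, of which TOE 4d 24h gave early cells only. By library, in the 7 with late cells, Hbb ran from 169 times in TOE 2d 24h to 564 times in TO 2d 4h and was highest of the 8 in each, while Hbb-bs (43.2 to 82.6 times), Slc4a1 (31.0 to 44.4 times) and Ahsp (5.80 to 8.26 times) were the lowest 3 in each. The order of the other 4 varied, with Alas2 at 92.9 to 226 times and Hba-a1 at 91.0 to 229 times. All 8 passed a log2 ratio of 1, where 16.8% of 12193 genes were higher in late cells and 50.6% lower.

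Ahsp in early cells was closest to its later level. It was at 1797 to 2408 CPM in early cells of the 8 libraries, where Alas2 was at 15.6 to 60.9 CPM and Slc4a1 at 78.5 to 211 CPM. In middle cells of 7 libraries Ahsp reached 6035 to 7550 CPM and Slc4a1 2513 to 3093 CPM. In late cells Ahsp was at 5188 to 7493 CPM and Slc4a1 at 1997 to 3047 CPM, ranges that overlap those of middle cells. For both genes the direction from middle to late depended on the scale. Over the libraries together, Ahsp was at 6841 and 5805 CPM and Slc4a1 at 2810 and 2667 CPM in middle and late cells, but in CPM of other genes, which leaves the globins out, Ahsp was at 9989 and 15048 and Slc4a1 at 4103 and 6913. In CPM of all UMIs the ranges of Alas2 did not overlap, at 1097 to 1680 CPM in middle and 2117 to 2976 CPM in late cells, nor did those of Hba-a1, at 119027 to 179062 CPM and 256016 to 314585 CPM. For Alas2 and Hba-a1 the late values of every library were above every middle value.

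Within the ranges the pairs differed from the class as a whole. At 2d 4h the early range was larger in TOE, with 0.644% of the TO cells and 1.15% of the TOE cells (ratio 1.78, 1.38 to 2.30), while the middle and late ranges were smaller, with ratios of 0.536 (0.436 to 0.656) and 0.539 (0.446 to 0.650). The ratio of the summed members at 2d 4h was 1.36 (1.34 to 1.38) in large early cells, 1.04 (1.04 to 1.05) in middle and 0.960 (0.957 to 0.963) in late cells. These intervals of summed levels count each UMI as independent and leave out the spread between cells. The lower level of the class at 2d 4h thus stood beside a larger share of early cells. At 4d 4h the same ratios were 1.31 (1.30 to 1.33), 0.976 (0.973 to 0.980) and 0.946 (0.943 to 0.949), and the shares of cells 0.980 (0.743 to 1.29) for early, 1.01 (0.820 to 1.25) for middle and 1.29 (1.06 to 1.57) for late cells. At 4d 24h the summed ratio in large early cells was 0.560 (0.551 to 0.569).

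**Figure D3:**
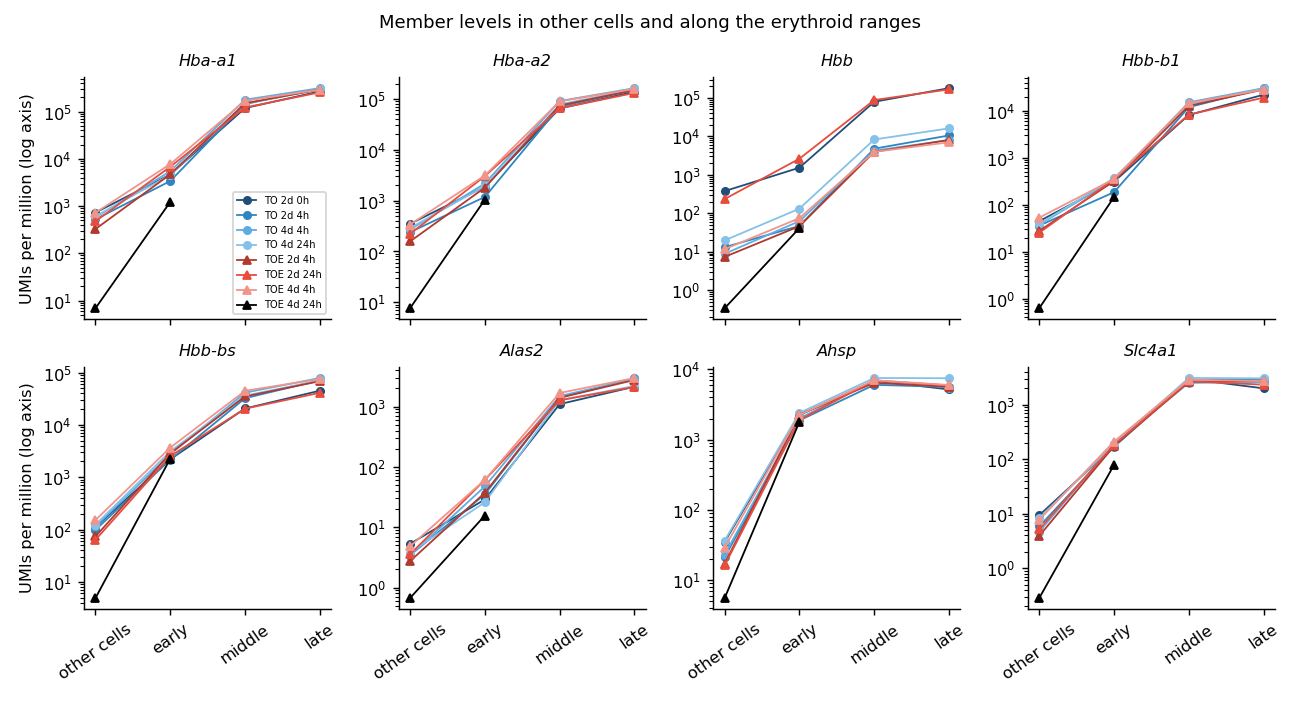
Level of each gene in CPM (log axis) in cells outside the erythroid-like class and in early, middle and late erythroid cells, with 1 line a library (circles TO, triangles TOE). Ahsp is already at 1797 or more in early cells, all members are higher in middle than in early cells, and the black line of TOE 4d 24h stops at early because no middle or late cells were found.

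The rest of the pathway was read from lists of genes. Of the 8 haem synthesis enzymes other than Alas2, 6 were higher in late than in early cells by the threshold and 0 lower. Fech, ferrochelatase, which puts iron into the ring, was at 134, 1460 and 3095 CPM of other genes in early, middle and late cells, and Urod was at 188, 1012 and 1936. Cpox, coproporphyrinogen oxidase, peaked in middle cells at 335, 2049 and 1101, and Alas1, the form used outside red cells, stayed at 14.0, 7.77 and 12.7. Slc25a37, mitoferrin 1, the mitochondrial iron importer, went from 98.2 to 2752 and 6820, while Tfrc, the transferrin receptor, was at 484, 2301 and 1894. Of 11 measured transport genes, 6 were higher and 4 lower in late cells, and of 15 membrane and skeleton genes, 4 of them also on the late list, 14 were higher. Across all genes the median log2 ratio of late to early was -1.02, with 16.8% higher and 50.6% lower. The 4 of 11 transport genes that were lower are thus below the share over all genes.

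Of 6 haem and iron genes described by library, 3 also had late-cell levels that did not overlap between the hours of collection. Fech was at 3242 to 3749 in late cells of the 4 libraries taken at 4 h and at 1860 to 1976 in the 3 taken at 0 or 24 h, again CPM of other genes. Cpox was at 1055 to 1530 against 419 to 618, and Slc25a37 at 6626 to 8674 against 3940 to 4855. The ranges of the other 3 genes overlap, Alad at 478 to 753 against 555 to 740, Urod at 1662 to 2234 against 1663 to 1848 and Tfrc at 1676 to 2122 against 1538 to 2511. The late cells of the 2 kinds of library mostly fell into different groups, 733 of 742 cells of the latest group being from 4 h libraries. With 1 library a condition, hour and library cannot be told apart.

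In TOE 4d 24h the erythroid-like class held early cells and 2 cells of the groups left out. Early cells numbered 75 of 12007 cells kept (0.625%, Clopper-Pearson 95% interval 0.492 to 0.782%), and middle and late cells numbered 0 each, against 330 middle and 189 late cells in TO 4d 24h. In the 6 other libraries middle cells numbered 152 to 263 and late cells 181 to 305. Early cells were present in all 8 libraries at 0.300 to 1.97% of cells.

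Of the 8 members, 7 were lower in the large early cells of TOE 4d 24h than in those of any other library, some of them by little. In this group of 61 cells in TOE 4d 24h and 21 to 175 elsewhere, Hba-a1 was at 1239 CPM in TOE 4d 24h and at 4297, 3281, 5177, 4201, 4635, 5330 and 7125 CPM in TO 2d 0h, TO 2d 4h, TO 4d 4h, TO 4d 24h, TOE 2d 4h, TOE 2d 24h and TOE 4d 4h. Slc4a1 was at 80.0 CPM against 168 to 210 CPM and Hba-a2 at 1056 CPM against 1143 CPM or more. The counting intervals of the other 4 overlap that of the next library, with Hbb-b1 at 148 CPM against 177 CPM or more, Alas2 at 15.9 CPM against 23.7 CPM or more, Hbb at 42.1 CPM against 45.1 CPM or more and Ahsp at 1818 CPM against 1827 to 2377 CPM. Hbb-bs alone was within the range of the others, at 2295 CPM against 2126 to 3550 CPM.

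Against TO 4d 24h the ratio in these cells was 0.295 for Hba-a1 (0.284 to 0.306), 0.611 for Hba-a2 (0.586 to 0.636) and 0.766 for Hbb-bs (0.744 to 0.788). The background from other cells was not alike in the 2 libraries, with Hba-a1 at 608 CPM for TO 4d 24h and at 6.86 CPM for TOE 4d 24h, and its part in the difference was not tested. Of 7 other erythroid and haem genes described in early cells, 5 were within the range of the other libraries, among them Klf1, the erythroid Krüppel-like factor, at 358 CPM of other genes against 334 to 456, and Fech at 137 against 107 to 166. The other 2 were below it, with Tfrc at 302 against 418 to 635 and Slc25a37 at 65.5 against 73.0 to 123.

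Of the β-globin UMIs, with Hbb-b2, another copy that is not among the 8 genes, included in the sum, Hbb took very different shares by library. In late cells it took 69.3% of them for TO 2d 0h, then 71.0% for TOE 2d 24h, but 7.96% in TO 2d 4h, 5.89% in TO 4d 4h, 12.7% in TO 4d 24h, 6.75% in TOE 2d 4h and 5.52% in TOE 4d 4h. Hbb-bs went the other way, at 17.4 and 17.5% in the first 2 libraries and 53.7 to 59.4% in the other 5. Hbb-b1 was at 8.52 and 8.13% against 22.2 to 23.8%, and Hbb-b2 at 4.82 and 3.32% against 8.12 to 15.4%.

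The difference held from cell to cell. Among late cells with at least 200 β-globin UMIs, the share of Hbb was 50.7% at the lowest, 69.1% in the median and 79.8% at the highest in the 187 cells of TO 2d 0h. In the 176 cells of TOE 2d 24h it was 58.9, 71.3 and 83.7%. In the 5 other libraries with such cells the highest cell was at 18.6%, and 0 cells exceeded 30%. The 2 kinds of library did not overlap in these cells, but cells of 1 library share their source.

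The α-globin copies did not differ in this way. Hba-a1 took 64.5 to 67.1% of the α-globin UMIs in late cells of the 7 libraries, and Hba-a3, another copy outside the 8 genes, 0.01 to 0.70%. The ratio of α- to β-globin UMIs did. It was lowest in TO 2d 0h, at 1.58, and TOE 2d 24h, at 1.65, and 3.48 to 3.72 in the other 5 libraries, again in late cells. Reads that fit more than 1 copy are missing from both sums, and their part in this ratio was not tested. The summed level of the 8 genes in late cells was 662491 and 623544 CPM in those 2 libraries and 558707 to 605384 CPM in the 5 others. Hba-a1 itself was at 268801 and 256016 CPM against 292688 to 314585 CPM.

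The β-globin copies also changed along the ranges. In early cells Hbb-bs took 83.6 to 91.4% of the β-globin UMIs in the 6 libraries low in Hbb, and 52.3 and 44.6% in TO 2d 0h and TOE 2d 24h. In middle cells its share was 55.7 to 62.1% in 5 libraries and 18.1 and 16.9% in those 2, close to the late values above. Hbb-b1 went the other way in the 5 libraries, from 7.47 to 10.2% in early to 20.4 to 21.8% in middle cells. For the α-globin genes the share of Hba-a1 was 69.2 to 74.2% in early cells of 7 libraries and 54.0% in TOE 4d 24h.

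**Figure D4:**
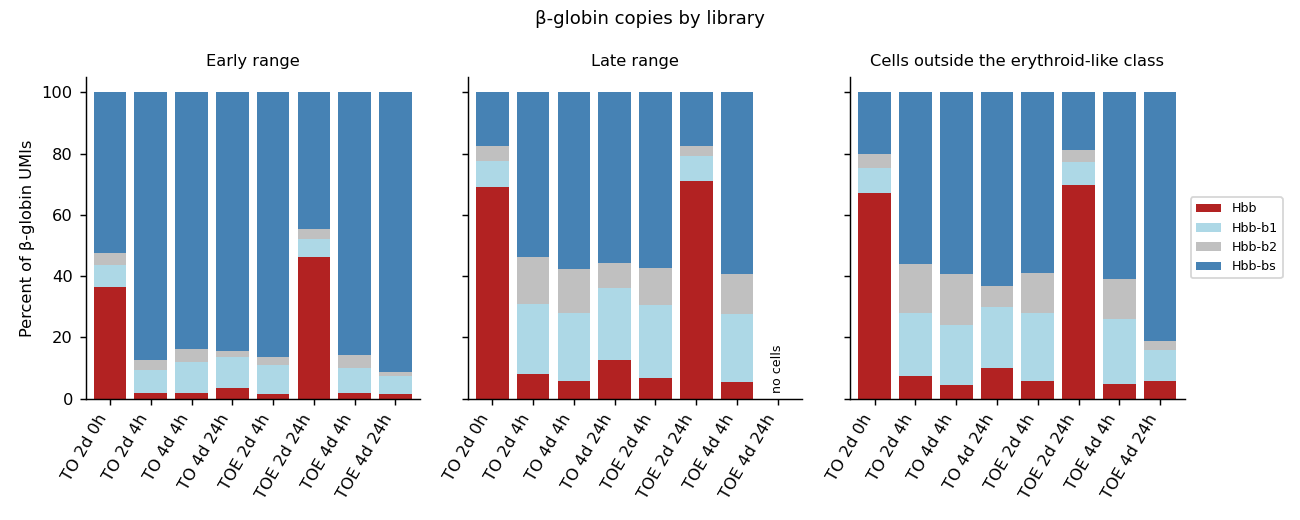
Share of each β-globin copy in the β-globin UMIs (percent) in early cells, late cells and cells outside the erythroid-like class, with 1 stacked bar a library. Hbb (red) takes 69.3 and 71.0% in late cells of TO 2d 0h and TOE 2d 24h and at most 12.7% elsewhere, the same libraries stand out in the other cells, and TOE 4d 24h has no late cells.

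Outside the erythroid-like class the 8 genes were found in every class of cell, at a lower level than in the erythroid-like class of the same library. Their sum in these cells was 1661 CPM in TO 2d 0h, 941 in TO 2d 4h, 1036 in TO 4d 4h, 1129 in TO 4d 24h, 616 in TOE 2d 4h, 1047 in TOE 2d 24h, 1320 in TOE 4d 4h and 26.9 in TOE 4d 24h. The pairs ran as over all cells, the ratio of TOE to TO being 0.654 (0.648 to 0.660) in the pair of 2d 4h. For 4d 4h it was 1.27 (1.26 to 1.28), and for 4d 24h 0.0238 (0.0228 to 0.0248). The exact sign-flip p over the 3 pairs was 0.5. With the TO 2d 4h cluster counted among these cells, the ratio at 2d 4h was 0.377.

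The share of such cells with any UMI of the 8 genes depended on depth. With each cell thinned to 1000 UMIs it was 78.6% in TO 2d 0h, 54.5% in TO 2d 4h, 58.9% in TO 4d 4h, 66.9% in TO 4d 24h, 36.4% in TOE 2d 4h, 56.1% in TOE 2d 24h, 66.1% in TOE 4d 4h and 2.40% in TOE 4d 24h. Between 428 and 1049 cells a library were shallower and were left out. Without thinning the shares were 85.5 to 99.5% in 7 libraries and 13.4% in TOE 4d 24h, at median depths of 4662 to 5411 UMIs. The order of the libraries followed that of the CPM at both ends.

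The mix of members in the other cells was close to that of the erythroid cells of the same library, except in TOE 4d 24h. In the 7 libraries each member's level in other cells was 0.279 to 1.43% of its level in erythroid-like cells without the TO 2d 4h cluster, and within a library the 8 genes differed by 1.18 to 1.86 times in this percentage, while their levels in other cells spanned from 2.73 CPM of Alas2 to 326 CPM of Hba-a1 in TOE 2d 4h, for example. In TOE 4d 24h, the percentage ran from 0.220 for Hbb-bs, with 432 UMIs in other cells, to 4.37 for Alas2, with 59. Hbb took 67.3% of the β-globin UMIs of other cells in TO 2d 0h, 69.9% in TOE 2d 24h and 4.59 to 10.1% in the other 6. The share of a library's member UMIs that lay in other cells was 4.52 to 13.7%.

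The classes differed in how much they carried. In TO 2d 0h the lowest of 10 classes with at least 20 cells was at 1248 CPM and the highest, the endothelial class of 29 cells, at 13491 CPM, above the 13026 CPM of the early erythroid cells of that library. In TO 4d 24h the endothelial class, of 38 cells, was again highest at 8289 CPM, but it was the lowest class in TOE 2d 4h, at 315 CPM in 27 cells, and in TOE 2d 24h, at 659 CPM in 101 cells. Macrophages were highest in TO 4d 4h, TOE 4d 4h and TOE 4d 24h, at 2783, 2677 and 162 CPM, mast cells and basophils in TO 2d 4h and TOE 2d 24h, at 4893 and 2895 CPM, and mesenchymal cells in TOE 2d 4h, at 2351 CPM. No class was thus highest in every library. B cells, the largest class, were at 1936 CPM in TO 2d 0h, at 1339 CPM in TO 4d 24h and, lowest, at 22.8 CPM in TOE 4d 24h. Over the 8 libraries 19 kept cells outside the erythroid-like class had at least 25% of their UMIs from the 8 genes.

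Over the 8 libraries, the share of erythroid-like cells and the level of the 8 genes in other cells had a Pearson r of 0.767 on the log2 scale (exact permutation p = 0.155, Benjamini-Hochberg adjusted 0.207) and a Spearman rho of 0.405 (p = 0.327, adjusted 0.327). Without the TO 2d 4h cluster they were 0.957 (exact permutation p = 0.0392, adjusted 0.0785) and 0.762 (p = 0.0368, adjusted 0.0785), the 4 values being adjusted together. Pearson's r rests on TOE 4d 24h. Among the other 7 libraries r was -0.08 (exact permutation p = 0.760) with the cluster and 0.44 (p = 0.314) without it, where rho was 0.107 (p = 0.840) and 0.643 (p = 0.139). Leaving out the 2 libraries farthest from the median share, TOE 4d 24h with TO 2d 4h or, without the cluster, with TO 4d 24h, gave an r of 0.23 (exact permutation p = 0.661) and 0.65 (p = 0.194), and a rho of 0.543 (p = 0.297) and 0.771 (p = 0.103). Without the cluster, rho thus stayed about as large when these libraries were left out, with p above 0.05.

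**Figure D5:**
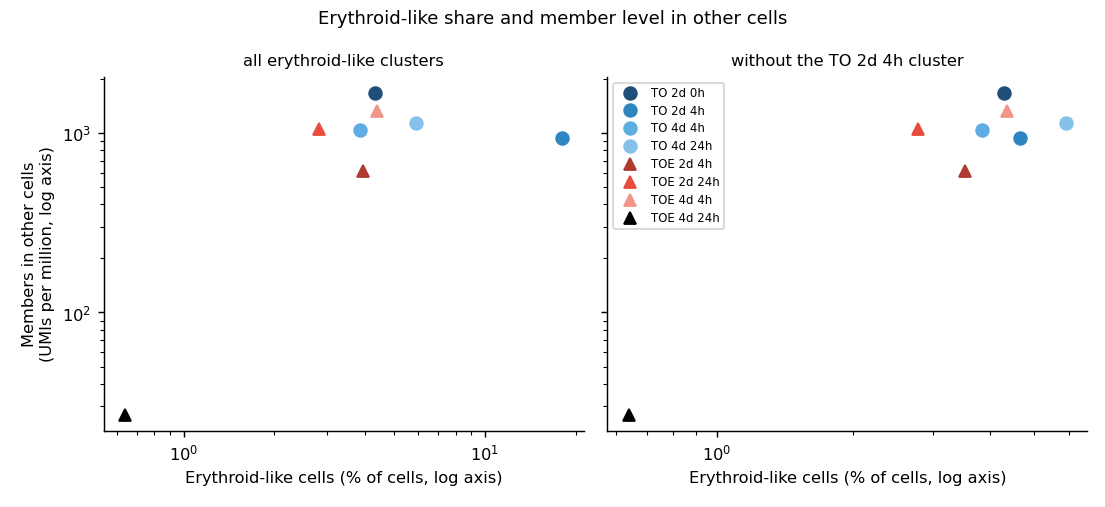
Summed level of the 8 genes in cells outside the erythroid-like class (CPM, log axis) against the share of erythroid-like cells (percent, log axis), with 1 point a library, with the TO 2d 4h cluster in the class (left) and without it (right). TOE 4d 24h lies at 0.641% and 26.9, far from the other 7 libraries, which lie between 616 and 1661.

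Across 28 sums of a group and a library, with at least 50 cells each, the 10 of 3365 genes whose log2 level followed that of the 8 genes most closely were LOC102552786, Ypel5, Tmie, Dnajb2, Cdc25b, RT1-S3, Grina, Marchf2, Emb and RT1-A2, with Pearson r from 0.969 to 0.974. The sums share libraries and groups, and the r is a description. With at least 20 cells a sum 3 of these genes remained among the 10, and with at least 100 cells 1.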

How the data were processed

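The deposited files hold raw counts of UMIs per gene and barcode, which the authors made with Cell Ranger 9.0.0 from 10x Chromium 3′ libraries and did not normalise. The submitters' notes name mRatBN7.2 and GRCh38 without roles. Barcodes under 200 genes or over 20% mitochondrial UMIs were dropped, and doublets were called with Scrublet in scanpy 1.11.5 (score 0.25, expected rate 8%). Counts scaled to 10000 UMIs a cell were clustered (2000 variable genes, 30 components, 15 neighbours, Leiden resolution 1 with igraph 0.11.9, and 0.5 within the erythroid-like class), without the members and the other globin genes and without integration. A cluster was named after the class with the highest mean fold among classes with at least 3 markers raised, by 2-fold or more at 5 CPM or more, unless markers of another class led it. Of 111646 cells, 21060 stayed unnamed and count among the other cells.

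Levels were sums of counts over cells, with exact Poisson, Clopper-Pearson or conditional 95% intervals (scipy 1.17.1), which cover counting error only. Where UMIs were counted, each UMI was taken as independent, so that the spread between cells is not in these intervals. With 1 library a condition no pair was tested. Log2 ratios over all genes used a prior of 0.5 UMI. The named genes were the 8 members and genes of lists fixed for haem, red cell and erythroid functions. Members and lists were chosen with earlier results of these data known. The groups' ranges, the removal of the TO 2d 4h cluster and the use of Hbb-b2 in the β-globin sum were chosen after the data were seen. The ratios and intervals were tested on simulated counts drawn with counting error alone. Spread between cells or animals was not simulated, so that test cannot speak to it. Alternatives were other filters, doublets kept, resolutions of 0.5 and 2, another seed, members used for clustering, other denominators, priors and UMI minimums.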

Additional observations from a re-analysis of the deposited data

Results flagged for a closer look

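The ratio of TOE to TO in the summed level of the 8 genes differed between the time points, being above 1 at 4d 4h and below 1 at 2d 4h and 4d 24h. Over all cells these ratios were 1.02, 0.406 and 0.0208 in that order, the first turning to 0.983 with doublets kept. In cells outside the erythroid-like class it was 1.27, 0.654 and 0.0238, and in erythroid-like cells without the TO 2d 4h cluster 1.02, 0.483 and 0.0619. With 1 library a condition the difference between time points was not tested. In large early cells the ratios were 1.31, 1.36 and 0.560 in the same order, so that at 2d 4h the ratio was above 1.

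Signal of the same kind was present in data that the comparisons left out. The filters removed 111 barcodes in which the 8 genes made up at least 50% of the UMIs. Hbb-b2, a β-globin copy outside the 8 genes, had 277078 UMIs over the 8 libraries, and Hba-a3, an α-globin copy, 23233.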

How the results depend on the processing

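For the replicate number no paired analysis was possible because each condition had 1 library, and the sign-flip tests match TO and TOE by day and hour instead. Ratios are of TOE to TO. At 2d 4h the erythroid-like share became 0.364 with a stricter filter and 0.755 without the TO 2d 4h cluster, an alternative chosen after seeing the data. The summed level over all cells became 0.405 with the stricter filter, 0.398 with doublets kept and 0.401 in CPM of other genes. In other cells it became 0.607, 0.568, 0.669 (resolution 0.5), 0.590 (members used for clustering), 0.550 (median over cells), 0.614 (cells over 10% left out) and 0.377 with the cluster added (chosen after seeing the data). In erythroid-like cells it became 0.678 without a filter, 0.648 with the stricter one, 0.664 with doublets, 0.690 at resolution 0.5, 0.687 with another seed, 0.689 with members used and 0.483 without the cluster. At 4d 4h, all cells reversed to 0.983 with doublets kept and gave 1.01 with the stricter filter, the share became 1.00 with doublets, other cells 1.26, 1.25, 1.24, 1.18, 1.22 and 1.23 (no filter, stricter, doublets, members used, median, over 10% left out), and erythroid-like cells 1.01 without a filter, 1.05 at resolution 2 and 1.05 with another seed. At 4d 24h the share became 0.142 and 0.156 (no filter, stricter), all cells 0.0192 and other cells 0.0214 with doublets, other cells 0.0253 with cells over 10% left out, and erythroid-like cells 0.0573 and 0.0569 (no filter, stricter). The median over cells gave no ratio at 4d 24h, as the median TOE cell held 0 UMIs. The percentage of Hbb in β-globin UMIs of erythroid-like cells, 67.3, 7.93, 5.78, 11.8, 6.25, 71.2 and 5.35 in the libraries other than TOE 4d 24h, TO first and in order of time, became 70.7, 9.35, 6.70, 12.7, 7.03, 73.7 and 6.09 without Hbb-b2 (chosen after seeing the data), and 7.49, 4.59, 10.1, 5.89, 69.9 and 4.69 in other cells of the last 6. In TOE 4d 24h it was 1.68 and, in other cells, 5.64. Other cells with a member UMI were 4.48% of TOE 4d 24h and 57.1 to 93.9% of the other libraries at 2000 UMIs, and 13.4% and 85.5 to 99.5% unthinned. The correlation ran from -0.0838 (without TOE 4d 24h) to 0.948 (without TO 2d 4h) as single libraries were left out, and was 0.957 without the cluster. Genes past the fold over all cells, 1778, 871 and 4130 at 2d 4h, 4d 4h and 4d 24h, fell to 1052 and 472 at the first 2 with a minimum of 200 UMIs and to 160, 127 and 860 at a log2 ratio of 2. In erythroid-like cells 2146, 294 and 1737 became 1090, 66 and 730 at 200 UMIs, 575, 35 and 315 at a log2 ratio of 2, and 692 and 2631 at the last 2 with 20 UMIs. Of the 10 genes most like the members, 3 and 1 remained with 20 and 100 cells. The causes were not tested.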

Other observations

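Genes around haemoglobin that belong to other lists also differed between early and late erythroid cells, by the same log2 ratio of 1 and in CPM of genes other than globins and members. Of all 12193 genes measured, 16.8% were higher and 50.6% lower in late cells. Of 9 erythroid transcription factors with Epor, the erythropoietin receptor, 2 were higher, Nfe2 at 21.6, 346 and 736 in early, middle and late cells and Klf1 at 405, 1036 and 996. Lmo2, Bcl11a and Gfi1b were lower, Bcl11a at 284, 65.3 and 27.5. Both counts are near or below those shares of all genes. All 3 other globin genes with enough UMIs were higher in late cells. Hba-a3 was at 1.80 in early, 38.6 in middle and 5224 in late cells, and Hbe1, an embryonic β-type globin, at 5.73, 71.7 and 64.9.

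Of 4 haem breakdown genes 3 were higher in late cells and 1 lower. Blvrb, biliverdin reductase B, was the most abundant, at 602, 1850 and 1521. Of 4 measured genes of haemoglobin and haem clearance 2 were higher and 1 lower, Slc40a1, the iron exporter ferroportin, at 31.1, 35.8 and 10.1. Of 3 proliferation genes 2 were lower in late cells, too few to set against the 50.6% of all genes, and all 3 were highest in middle cells, with Mki67 at 679, 3156 and 672.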
